A study of Zea mays with 6 samples.

Results

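Genes that copy, write and give access to DNA methylation were examined in the developing maize leaf of the hda108 mutant and of wild type. The group holds 6 genes, chosen by identifier from the 39604 entries of the leaf table: the DNA methyltransferase genes met1 (dmt101), zmet2, zmet5 and dmt103, and the DDM1-like chromatin remodeller genes chr101 and chr106. The labels describe 6 libraries from the 11th leaf, still enclosed by older leaves, of plants grown in a greenhouse to vegetative stage 8, with 3 libraries homozygous for hda108 and 3 from wild type. The product of HDA108 is a histone deacetylase, which takes acetyl groups off histones; the allele and the genetic background are not given in the labels. The deposited table holds 1 value per gene and genotype, in FPKM (fragment counts corrected for transcript length and sequencing depth). The spread between libraries cannot be seen in it, so differences are described by their size alone, without tests or errors.

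In plants, cytosines are methylated in 3 sequence contexts by separate enzyme classes. MET1-type enzymes copy methylation of CG sites after DNA replication. Chromomethylases, the class of zmet2 and zmet5, methylate CHG sites (H stands for A, C or T) in chromatin that carries methylated histone H3 lysine 9. The domains-rearranged class places methylation guided by small RNAs. The name dmt103 does not state a class, as the same name series also holds met1 (dmt101) and zmet5 (DMT105). DDM1, known best from Arabidopsis, is a remodeller of the SNF2 family that opens compact chromatin to the methyltransferases.

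The names are those of the list that defined the group, and a RefSeq table (assembly Zm-B73-REFERENCE-NAM-5.0) matches them only in part. It pairs 4 of the 6 identifiers with 1 entry each: zmet2 as met2, zmet5 as met5 with the synonym Zmet5, chr101 with the synonym cha101 and chr106 with the synonym chr101a. The identifier listed as met1 has 0 entries there, and the synonyms met1, dmt101 and ZMET1 stand on a pair of neighbouring identifiers described below. The identifier listed as dmt103 stands under 2 neighbouring RefSeq genes, so its value may join transcripts of both. It is also the 1 member whose locus entry in the deposited table is shared with another gene.

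The hda108 label was checked first. HDA108 itself (GRMZM2G136067) had 3.06 FPKM in hda108 and 10.9 FPKM in wild type, 28.1% of the wild-type value. Leaf identity was checked with photosynthesis markers and with markers of other tissues. Of the photosynthesis markers, pyruvate phosphate dikinase (pdk1, GRMZM2G306345) had 455 FPKM in hda108 and 1111 FPKM in wild type. The meristem gene kn1 had 0.0224 FPKM in hda108 and 0.0245 FPKM in wild type, and the floral gene ZAG1 had 0.144 FPKM in hda108 and 0.0915 FPKM in wild type. The endosperm gene o2 was listed at 0 in both genotypes and sh2 stayed below 1 FPKM in both.

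Transcripts of 5 of the 6 genes had nearly the same value in both genotypes or differed by less than 1.5-fold, and 1 gene, dmt103, stood in hda108 at 53.0% of its wild-type value. All 6 entered the comparison, which took genes with both values above 0 and a mean of at least 1 FPKM. Differences were taken as log2 of FPKM + 0.5, hda108 minus wild type, a scale that understates the change of genes with low values. None of the 6 reached a difference of 2-fold. Of the 21057 compared genes 2.31% did, a share at which most sets of 6 genes would hold none. At 1.5-fold the count was 1 of 6, against 8.95% of all compared genes in either direction and 3.63% in the downward direction. The median difference of the 6 genes was 0.01 and that of all compared genes 0.06. In a pooled leaf sample, fewer cells that express a gene and less RNA per cell cannot be told apart.

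**Figure D1:**
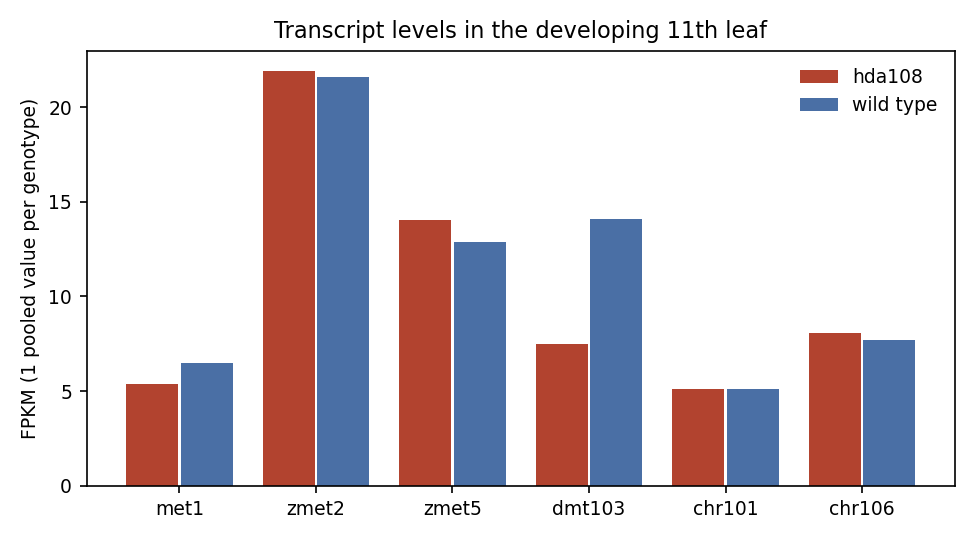
FPKM (vertical axis, 1 pooled value per genotype, so no error bars) of the 6 genes (horizontal axis) in hda108 (red) and wild type (blue). The bars differ most for dmt103, at 7.46 FPKM in hda108 and 14.1 FPKM in wild type, while zmet2 is the most abundant of the 6 in both genotypes.

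The CG maintenance gene listed as met1 (GRMZM2G333916, chromosome 7, 11133094 to 11139492, B73 RefGen_v3) had 5.35 FPKM in hda108 and 6.48 FPKM in wild type. The mutant had 82.5% of the wild-type level (log2 difference -0.26). The difference stayed below 0 under every scaling tried, but each of these scalings lowered it, so they did not test its direction. A difference at least this large in size was seen in 36.3% of compared genes, and 13.9% had a difference this low or lower, so that met1 lies below the interquartile range of the table. Of all genes listed above 0, 55.4% had a lower value than met1 in hda108 and 59.7% in wild type.

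At higher coordinates on chromosome 7 lie the 2 identifiers that RefSeq joins under the name met1. GRMZM2G333997 (11146296 to 11149206), 6803 bp away, had 1.53 FPKM in hda108 and 0.957 FPKM in wild type, a log2 difference of 0.48. GRMZM2G334041 (11151803 to 11157815) had 3.30 FPKM in hda108 and 3.97 FPKM in wild type, a log2 difference of -0.23. The long entries at either end of this stretch thus had almost the same ratio between genotypes, 82.5% for GRMZM2G333916 and 83.2% for GRMZM2G334041, while the short entry between them was higher in hda108 at a level near 1 FPKM. GRMZM2G333916 supplied 61.8% of the summed FPKM of that outer pair in hda108 and 62.0% in wild type. Whether reads were divided between near-identical copies here was not tested, so the separate values are uncertain.

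The chromomethylase genes had the smallest differences of the 4 methyltransferase genes in the group. Zmet2 (GRMZM2G025592, chromosome 10, 141612635 to 141620390) had 21.9 FPKM in hda108 and 21.6 FPKM in wild type. Its log2 difference was 0.02, and it became -0.041 when the median of all genes was set to 0 and -0.038 with quantile normalization, so no direction can be given. Zmet5 (GRMZM2G005310, chromosome 2, 10343924 to 10353440) had 14.0 FPKM in hda108 and 12.9 FPKM in wild type. That is a log2 difference of 0.12, which stayed above 0 under every scaling tried and was matched or exceeded in size by 65.1% of compared genes. Within the pair, a share that no common factor per genotype can alter, and that quantile normalization moved by less than 1 percentage point, zmet2 made up 60.9% of the summed FPKM in hda108 and 62.7% in wild type.

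The gene listed as dmt103 (GRMZM2G092497, chromosome 9, 154723991 to 154755677) had 7.46 FPKM in hda108 and 14.1 FPKM in wild type. Its log2 difference was -0.87, or 1.83-fold lower in hda108. Between -0.93 and -0.83 under the alternatives, it stayed past 1.5-fold and short of 2-fold. Differences this low or lower were listed for 257 compared genes, 1.22% of the table. Its place among genes listed above 0 also moved: 62.9% of them had a lower value in hda108 and 78.4% in wild type.

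The same locus entry holds GRMZM2G393334, which RefSeq lists with the synonym fgp1. This gene had 10.8 FPKM in hda108 and 11.2 FPKM in wild type, a log2 difference of -0.06. The order of the pair was therefore opposite in the genotypes, with GRMZM2G092497 at 41.0% of their summed FPKM in hda108 and 55.7% in wild type. In RefSeq, the gene of GRMZM2G393334 and the 2 genes that carry the identifier GRMZM2G092497 follow each other directly along chromosome 9. How the authors' counting divided reads among these transcripts is not given in the sources used here, so it cannot be said which of them the lower value belongs to. Of the 1421 compared entries that share a locus, 1.06% had a difference as low as that of GRMZM2G092497 and 4.29% were past 1.5-fold lower. Of the 19636 entries alone at their locus, 1.23% were as low and 3.58% were past 1.5-fold lower. The part of locus sharing in the dmt103 value was not tested. Of 410 compared identifiers listed under more than 1 RefSeq gene, 3 had a difference this low, against 1.22% of all compared genes. Past 1.5-fold in either direction were 6.83% of the 410, against 8.95% of all compared genes. The lower direction was not counted alone. The part of joined RefSeq genes in the dmt103 value was not tested.

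**Figure D2:**
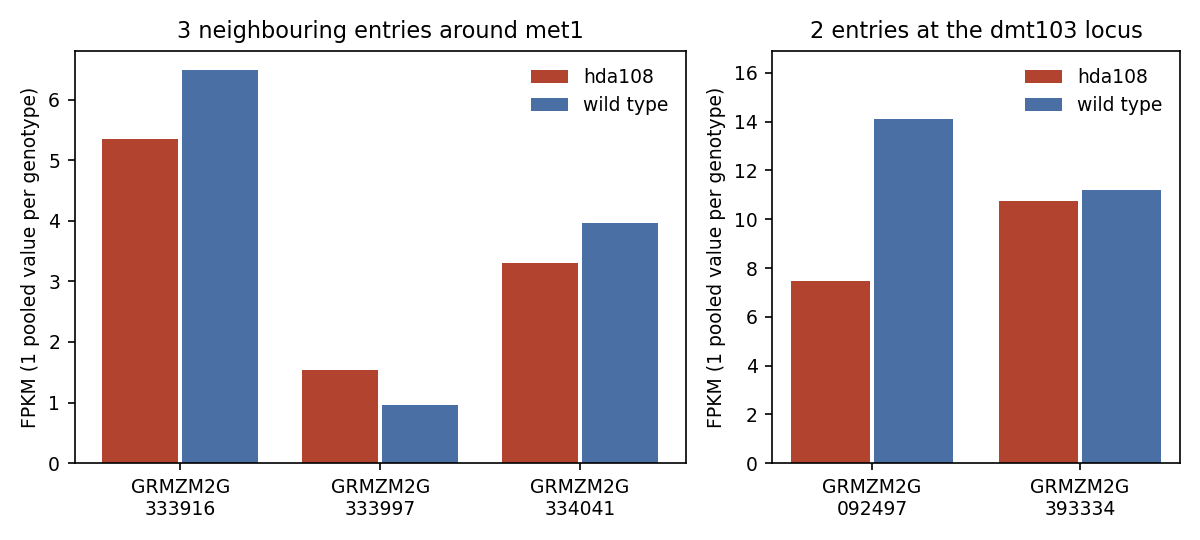
FPKM (vertical axes, 1 pooled value per genotype) in hda108 (red) and wild type (blue) of the 3 neighbouring entries around met1 on chromosome 7 (left) and of the 2 entries that share the dmt103 locus on chromosome 9 (right). GRMZM2G333916 and GRMZM2G334041 have similar ratios between genotypes, and at the dmt103 locus GRMZM2G092497 is lower in hda108 while GRMZM2G393334 differs by -0.06 on the log2 scale.

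The DDM1-like remodeller genes had closely similar values in both genotypes. Chr101 (GRMZM2G177165, chromosome 2, 237177007 to 237182832) had 5.09 FPKM in hda108 and 5.09 FPKM in wild type, the mutant value being 99.96% of the wild-type value. Chr106 (GRMZM2G071025, chromosome 1, 270318385 to 270325104) had 8.07 FPKM in hda108 and 7.71 FPKM in wild type, a log2 difference of 0.06 that lies at the median of all compared genes and was -0.00081 once that median was set to 0. Chr101 made up 38.7% of the summed FPKM of the pair in hda108 and 39.7% in wild type. Reads shared between the 2 related genes were not examined.

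**Figure D3:**
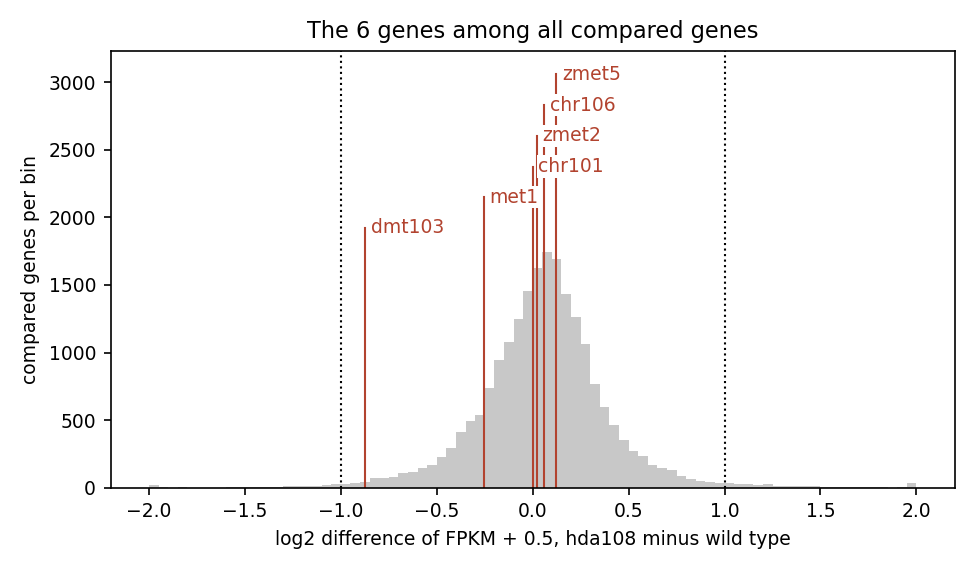
Histogram of log2 differences (horizontal axis, FPKM + 0.5, hda108 minus wild type) of the 21057 compared genes (vertical axis, genes per bin; differences beyond the axis range stand in the end bins), with a red line at each of the 6 genes and dotted lines at 2-fold. Of the 6, dmt103 lies in the lower tail at -0.87, inside the 2-fold line, and the others lie between -0.26 and 0.12.

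Because FPKM corrects for transcript length, levels can also be ordered within a genotype. In hda108 the order was zmet2 (21.9 FPKM), zmet5 (14.0), chr106 (8.07), dmt103 (7.46), met1 (5.35) and chr101 (5.09). In wild type it was zmet2 (21.6 FPKM), dmt103 (14.1), zmet5 (12.9), chr106 (7.71), met1 (6.48) and chr101 (5.09). Dmt103 was the fourth in hda108, against the second in wild type, and the other 5 kept one order in both genotypes. Neighbours in this order, such as chr106 and dmt103 in hda108, 1.08-fold apart, cannot be ranked firmly without the spread between libraries. The 6 genes summed to 61.9 FPKM in hda108 and 67.8 FPKM in wild type. Dmt103 supplied 12.1% of that sum in hda108 and 20.8% in wild type.

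The surroundings of the 6 genes were examined as well, and none of the 6 lies on chromosome 4, which carries HDA108. The nearest compared genes, up to 10 on either side (20 in a window, 19 for chr101), had median log2 differences between -0.01 and 0.20 across the 6 windows. In 5 windows no gene was past 2-fold and in that of met1 1 was, where 2.31% of all compared genes were. Windows of this size are too small for such counts to set them apart from the table. In the window of met1, GRMZM2G115357, 156194 bp before it, had 1.83 FPKM in hda108 and 0.456 FPKM in wild type, a difference of 1.28. Next to chr106, GRMZM2G369607, 4631 bp away, had 6.92 FPKM in hda108 and 3.74 FPKM in wild type, a difference of 0.81, while chr106 itself differed by 0.06. GRMZM2G025243, 606 bp from zmet2, had a difference of -0.09, and zmet2 had 0.02. On the open side of dmt103, GRMZM2G092723 had 2.98 FPKM in hda108 and 2.42 FPKM in wild type. The other compared neighbours had differences of 0.50 (GRMZM2G108125, beside zmet2), 0.37 (GRMZM5G817886) and -0.14 (GRMZM2G005155) beside zmet5, 0.28 (GRMZM2G103955) and 0.01 (GRMZM2G042343) beside chr101, and 0.12 (GRMZM2G150166) beside chr106.

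Further genes of the methylation machinery were gathered by symbol. Of the 4 other entries that RefSeq names as cytosine methyltransferases, 3 had higher and 1 lower values in hda108. None was past 1.5-fold, against 8.95% of all compared genes, a share at which lists this short may well hold none. Of all compared genes, 59.7% had a difference above 0. The gene with the synonym dmt106 (GRMZM2G065599, chromosome 8) had 6.75 FPKM in hda108 and 4.91 FPKM in wild type, a difference of 0.42. The gene with the synonym met4 (GRMZM2G157589, chromosome 8) had 6.53 FPKM in hda108 and 5.65 FPKM in wild type, a difference of 0.19. The remaining entries of that list are the met1 identifiers GRMZM2G333997 and GRMZM2G334041 given above.

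The demethylation side was represented by 1 identifier, GRMZM5G828460, with the synonym DML3, the name of an Arabidopsis DNA glycosylase that removes methylated cytosine. It had 10.2 FPKM in hda108 and 9.47 FPKM in wild type, a difference of 0.10. Methyl-CpG-binding domain genes have products that bind methylated CG sites or resemble proteins that do. Of 9 compared, 3 were higher in hda108, against 59.7% of all compared genes, and 6 lower. The median of the 9 was -0.06. The largest differences were those of mbd115 (-0.35; 7.57 FPKM in hda108 and 9.82 FPKM in wild type) and mbd117 (-0.17). None of the 9 was past 1.5-fold, against 8.95% of all compared genes.

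The 8 other identifiers with symbols of the maize remodeller series had a median of -0.02, against 0.06 for all compared genes. None was past 1.5-fold, against 8.95% of all compared genes, so a count of none in so short a list says little. The largest difference was that of chr111 (GRMZM2G063864), which stood in hda108 at 76.5% of its wild-type value (-0.37). GRMZM2G435541, 1 of 4 identifiers listed under chr124, followed at 0.25. The name chr122 also stands on more than 1 identifier, so the list holds fewer genes than identifiers. Chb102 in that list carries the name of a SWI3-type subunit and not of a remodelling ATPase.

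Met1-type enzymes act behind the replication fork, so replication genes were set beside the members as markers of dividing cells. Of 9 compared, 5 were higher in hda108, against 59.7% of all compared genes, and 4 lower. The median of the 9 was 0.0043 (below 0 under each of the 3 scalings tried). None was past 1.5-fold, against 8.95% of all compared genes. The helicase subunit genes MCM7 (0.30) and MCM6 (-0.26) had the largest differences. The sliding clamp gene pcna1 had a difference of 0.08, and pcna2 had 23.2 FPKM in hda108 and 26.0 FPKM in wild type. Of 8 identifiers caught by the symbols of the photosynthesis markers, 7 were lower in hda108, against 40.3% of all compared genes. Past 1.5-fold lower were 4 of the 8, against 3.63% of all compared genes. Past 2-fold was 1, pdk1, while GRMZM5G899080, listed under Pep1, had a difference of 0.33 upward. The list summed to 2100.0 FPKM in hda108 and 3625 FPKM in wild type. Among its members, me3, the NADP-malic enzyme gene, had 196 FPKM in hda108 and 384 FPKM in wild type. The symbols PDK1 and Pep1 are also carried by genes that need not be photosynthetic, so the list is not pure. The 4 markers of other tissues summed to 1.0002 FPKM in hda108 and 0.674 FPKM in wild type. The part of these marker differences in the dmt103 value was not tested.

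**Figure D4:**
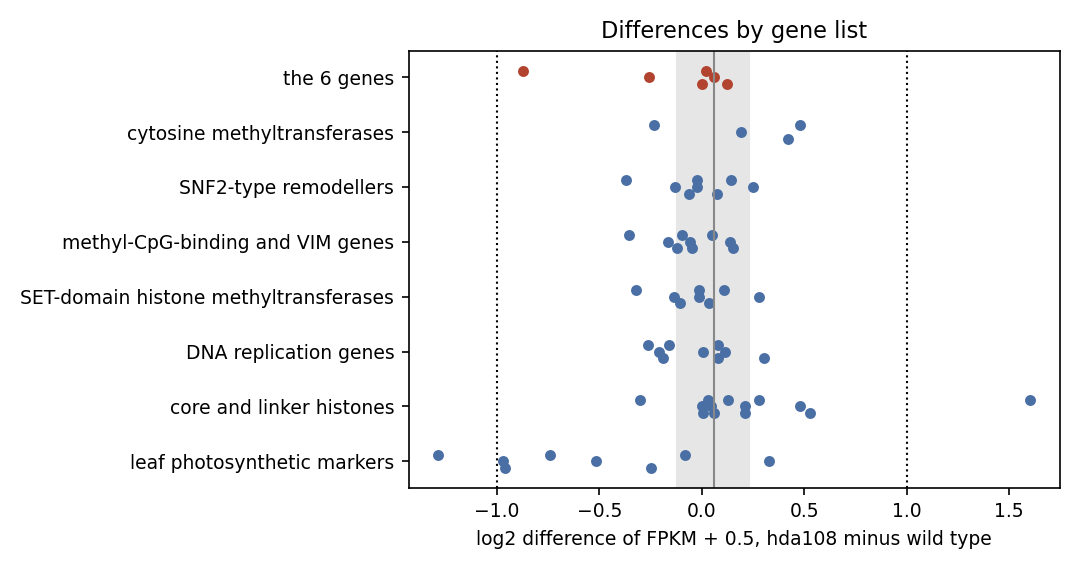
Log2 differences (horizontal axis, FPKM + 0.5, hda108 minus wild type) of the 6 genes (red) and of the compared genes in related lists without them (blue), 1 point per identifier. The grey band spans the interquartile range of all compared genes (-0.12 to 0.23), the grey line marks their median of 0.06 and the dotted lines mark 2-fold; 4 of the 6 genes lie inside the band.

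Likeness to other genes could be measured only over the 2 pooled values, as the distance between log2(FPKM + 0.5) in both genotypes, among 141 compared genes with a RefSeq symbol of their own. The nearest were DAO for met1, ERA1 for zmet2, sfp7 for zmet5, CNR5 for chr101 and sbp19 for chr106, at distances between 0.02 and 0.09. For dmt103 the nearest, sfp3, was farther away at 0.34, with 7.38 FPKM in hda108 and 11.0 FPKM in wild type.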

How the data were processed

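The authors deposited 1 table of FPKM for 39604 entries, with a column for wild type and a column read as homozygous hda108, each standing for 3 libraries. Per the submitters' processing notes the tools were Cuffdiff 2.2.1, Cufflinks, TopHat2 2.0.13, SAMtools, Trimmomatic 0.33 and CASAVA 1.8, with the build B73 RefGen_v3; roles and settings are not stated, so scaling between libraries is unknown. The depth is unknown too: among 200 genes with a mean below 0.02 FPKM, at most 2 shared a ratio between genotypes (rounded to 4 decimals), so no whole-read steps were found. 

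The members and lists were chosen with earlier results of these data known. Lists were filled by patterns on RefSeq symbols and synonyms. No test fits 1 pooled value per genotype; a difference in log2(FPKM + 0.5) of at least 1 was the rule of size. Named genes were the members, HDA108, genes sharing a member's locus entry, the compared neighbours on either side and the nearest genes in level. In each list, those past 2-fold or else the 2 largest differences were named. Others (GRMZM2G334041, met4, chb102, chr122, pcna1, pcna2, the histone genes not past 2-fold, me3 and the other markers) were picked with their values in view. Settings varied were the pseudocount, the filter on the mean, scaling (3 kinds), shared locus entries and the fold rule. RefSeq served for names and gene order alone. The software was pandas 2.3.3 and numpy 2.4.6 under Python 3.11.15, with matplotlib 3.10.9 for plots.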

Additional observations from a re-analysis of the deposited data

How the results depend on the processing

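With the median of all genes set to 0, zmet2 differed by -0.041, chr106 by -0.00081 and the replication list by -0.057. With quantile normalization zmet2 differed by -0.038 and the replication list by -0.077, and with equal FPKM sums that list had -0.0034. The cause of these turns is the scaling itself, since the values lie near 0. Met1, dmt103 and chr101 stayed below 0 and zmet5 above 0 under each alternative that gave a value. For met1, dmt103 and chr101 the direction was not tested by this. Every scaling tried lowered their differences, and neither pseudocount nor filters can change a sign. Chr101, at -0.00047 in the main setting, has no direction that can be given. The difference of zmet5 was larger than the shift made by any scaling tried, with 0.060 as its lowest value. Without the spread between libraries its direction is not established either. Without shared locus entries, dmt103 has no value. The 1.5-fold rule gave 1 of the 6 genes, and over all compared genes 1120 higher and 764 lower, against 311 and 176 at 2-fold. With a mean of at least 5 FPKM, 133 were higher and 93 lower at 2-fold. That filter left 13686 compared genes, and the share past 2-fold was 1.65%, against 2.31% in the main setting. Without chromosome 4, an alternative chosen after seeing the data, the counts were 262 and 125. No paired analysis was possible because the table holds 1 pooled column per genotype; for the same reason no replicate could be left out. Depth is unknown, so what the low values can resolve cannot be stated.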

Other observations

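Histone genes, many of which dividing cells express during DNA replication, had 12 of 13 compared identifiers higher in hda108, where 59.7% of all compared genes were higher. The list includes linker histones, and some identifiers, such as GRMZM2G157596 and GRMZM2G158526, stand under the same RefSeq genes. The median log2 difference of the list was 0.13, against 0.06 for all compared genes, and no test was run. With the median of all genes set to 0, the list median was 0.066. The count of 12 depends on scaling, because some differences lay above 0 but below the all-gene median of 0.061. These were his2b2 (0.0014), his1 (0.0036), GRMZM2G157596 (0.032), GRMZM2G401581 (0.046) and hon101 (0.058). Past 2-fold was 1 of the 13, where 2.31% of all compared genes were. This was the histone H4 gene GRMZM2G084195 on chromosome 4, with 113 FPKM in hda108 and 37.0 FPKM in wild type (3.04-fold). H4 genes are near-identical and this identifier stands under more than 1 RefSeq gene, so its value is uncertain. Chromosome 4 also carries HDA108. Past 2-fold were 487 of all 21057 compared genes, and 387 (2.04%) of the 18958 outside chromosome 4. The share past 2-fold was therefore higher on chromosome 4 than outside it. The part of the shared chromosome in the H4 value was not tested. The linker histone gene his1a (GRMZM2G401308) had 177 FPKM in hda108 and 123 FPKM in wild type, a difference of 0.53.

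SET-domain histone methyltransferase genes had 3 of 8 higher, against 59.7% of all compared genes, and 5 lower, with a median of -0.02. None was past 1.5-fold, against 8.95% of all compared genes. The largest differences were those of sdg110 (-0.32) and mez3 (0.28), the second a gene of the Enhancer of zeste type. The S-adenosylmethionine synthesis gene sam2 (GRMZM2G154397), whose product is the methyl donor's source, had 765 FPKM in hda108 and 982 FPKM in wild type, a difference of -0.36.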
